A study of Mus musculus with 6 samples.

Results

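The genes described here encode the constitutive proteasome, chosen by name: every gene called Psma, Psmb, Psmc, Psmd, Psme, Psmf or Psmg with a number, apart from the interferon-induced genes Psmb8, Psmb9, Psmb10, Psme1 and Psme2. The rule found 44 of the 35275 gene rows in the table. RNA was sequenced from cultured primary microglia, the brain's resident macrophages, of mouse strain C57/BL6. The co-cultured group (n = 3) shared its wells for 2 days with regulatory T cells (Tregs) held in transwells, and those Tregs had first been kept for 24 hours with brain slices taken 5 days after tMCAO, a transient blockage of the middle cerebral artery that models stroke. The control group (n = 3) was primary microglia of the same strain without Tregs. No slice or transwell exposure is recorded for the controls, so effects of Tregs, of slice material and of the transwell cannot be told apart. The labels do not tie the 3 libraries of a group to different mice or dishes; the p-values therefore reflect library-to-library spread, part of which may be technical.

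The proteasome degrades proteins that carry ubiquitin chains. Its 20S core is a barrel of alpha rings, which form the gate, around beta rings, which hold the proteolytic sites. The 19S particle caps the barrel: a ring of ATPases unfolds the substrate, and the non-ATPase subunits bind ubiquitin, remove it and form a lid. Dedicated chaperones help to assemble the core and the 19S base, and other activators can take the place of the 19S particle. In macrophages and microglia, interferons induce alternative catalytic subunits that replace the constitutive ones and change which peptides are made for antigen presentation.

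Most subunits of the core and of the 19S particle rose modestly together in co-cultured microglia, while none of the assembly chaperones passed the test. Of the 44 genes, 43 passed the filter on low counts, and 28 of these rose and 0 fell (edgeR quasi-likelihood test, adjusted p below 0.05 over all 13274 genes tested). Across all genes tested 25.9% rose and 25% fell, so 50.9% changed, against 65.1% of the tested proteasome genes that rose. The fold changes of the 28 were small, between 1.119 and 1.702, and their median over all 43 was 0.25 on the log2 scale (co-cultured minus control), against -0.01 over all genes tested. One gene, Psmd9, had a lower level at an unadjusted p below 0.05, and DESeq2 and limma-voom also called 0 of the 43 lower and 28 higher. All 28 kept the higher direction in each of 17 alternatives tested at the same threshold against no change, and 20 kept their call in all of them; Psma4, Psma5, Psma7, Psmb3, Psmc3, Psmd3, Psmd13 and Psmd14 lost it in at least 1. Upper-quartile scaling called 24 higher and 2 lower (Psmd6 and Psmd9), and library totals alone called 26 higher and the same 2 genes lower. Those 2 scalings also moved the balance over all genes, to 2731 higher and 4090 lower and to 2774 higher and 3997 lower, against 3432 higher and 3320 lower with TMM (trimmed mean of M values), the scaling used here. When tested against a 1.2-fold change rather than no change, 10 of the 43 were called higher, and 13.2% of all genes tested were. These 10 were Psma2, Psma6, Psmb2, Psmb5, Psmc1, Psmc5, Psmc6, Psmd12, Psme2b and Psme4.

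**Figure D1:**
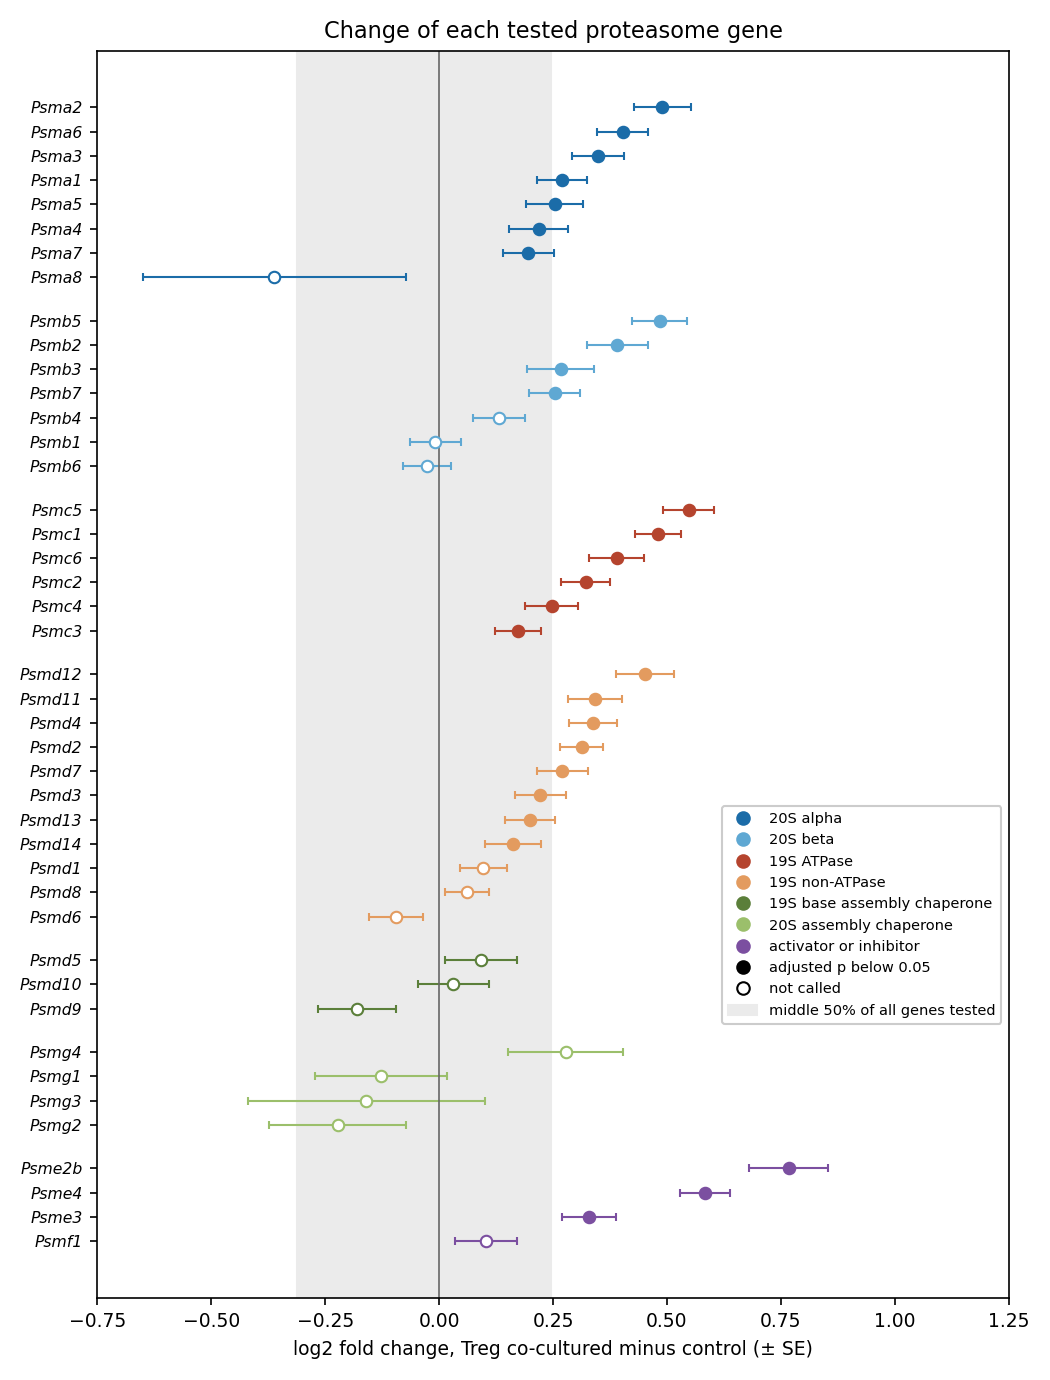
Log2 fold change (co-cultured minus control, x axis) with the standard error of the fit for the 43 tested proteasome genes, grouped by class down the page; filled points have an adjusted p below 0.05 and the grey band runs from the lower to the upper quartile of all genes tested. The 28 filled points are all right of 0, all 6 ATPases among them, and the 7 assembly chaperones are all open.

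Totals were 20987384 to 22084542 counts in co-cultured libraries and 16972758 to 21465960 counts in control libraries, and the 44 genes together took 0.383% to 0.392% of counts, against 0.331% to 0.348%. The mitochondrial share of counts was 0.636% to 0.772% in co-cultured libraries and 1.32% to 1.38% in control libraries, and that of cytosolic ribosomal protein genes 1.03% to 1.2%, against 1.68% to 1.87%; their part in the results was not tested. Microglia markers (3 of 8 higher, 5 lower, led by Csf1r and Trem2) summed to 3814 to 4236 CPM, against 5641 to 5829 CPM. T cell markers (4 of 11 tested, 1 higher and 2 lower) summed to 14.9 to 15.9 CPM, against 14.3 to 15.2 CPM, with Ikzf2 and Cd4 the most abundant. Cd4 rose 2.527-fold (edgeR adjusted p = 2.14e-07), whereas Ikzf2 fell to 6.31 CPM, against 8.43 CPM, and Foxp3, named after its values were seen, to 1.63 CPM, against 3.22 CPM (adjusted p = 0.0103 and 4.29e-04); Trac, Cd2 and Ctla4 had 0 counts in all 6 libraries, and Cd3e had 10, 2 and 3 counts, against 0 in each control library. Of 10 monocyte and border macrophage markers 5 were tested and 4 rose (sum 1229 to 1322 CPM, against 713 to 753 CPM; Ms4a7 and Mrc1 led), while Ly6c2 had at most 1 count in a library. Oligodendrocyte markers (1 of 6 higher, 5 lower; Cnp and Mbp led) summed to 198 to 208 CPM, against 192 to 214 CPM. Astrocyte markers (2 of 6 higher, 1 lower; Aldh1l1 and Gfap led) summed to 33.2 to 41.4 CPM, against 30.6 to 37.1 CPM, neuron markers (1 higher, 1 lower of 6; Map2 and Tubb3 led) to 13.8 to 15.6 CPM, against 9.58 to 13.2 CPM, and endothelial markers (3 of 4 tested higher, 1 lower; Flt1 and Kdr led) to 94.3 to 109.7 CPM, against 104 to 112 CPM. Such sums can hide opposite changes. Among the endothelial markers Flt1 fell to 47.0 CPM, against 95.6 CPM, while Kdr rose 5.434-fold, Pecam1 4.351-fold and Cdh5 3.639-fold. Among the oligodendrocyte markers Cnp rose to 129 CPM, against 53.8 CPM, and Mbp fell to 66.3 CPM, against 104 CPM. In bulk samples, fewer cells of a type and less RNA per cell cannot be told apart, and the part of these markers in the results was not tested.

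Of the 8 alpha genes of the 20S core, the 7 that most tissues use rose, 1.145-fold to 1.405-fold. Their groups were separate at all 7, as they were at 57.2% of all genes tested. Psma2 (chromosome 13, 14613240 to 14674236, plus strand, GRCm38), one of the subunits of the gated outer ring, changed most. It had 82.9, 91.1 and 84.5 CPM in co-cultured libraries, against 55.9, 60.9 and 67.2 CPM in control libraries; CPM here are counts relative to the TMM-scaled library total. Its log2 fold change was 0.49 ± 0.06 (SE of the fit; edgeR adjusted p = 9.04e-08). All 3 co-cultured libraries lay above all 3 controls, and control replicate 3 was the highest control, as it was at the other 6 alpha genes that rose. Psma6 had 131, 133 and 122 CPM in co-cultured libraries, against 92.8, 94.9 and 104 CPM in control libraries (log2 fold change 0.40 ± 0.06, adjusted p = 2.63e-07). Psma7, with the smallest rise, averaged 79.4 ± 2.33 CPM in co-cultured libraries and 69.3 ± 1.1 CPM in control libraries (mean ± SD, n = 3 each). Psma4 averaged 62.7 ± 0.817 CPM in co-cultured libraries and 53.9 ± 5.25 CPM in control libraries (adjusted p = 0.00513), and its call was lost without control replicate 1 (adjusted p = 0.0902).

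Psma8, the alpha subunit of the testis proteasome, was near the floor. It had 1.36, 1.09 and 1.7 CPM in co-cultured libraries, against 1.63, 2.08 and 1.65 CPM in control libraries. Its groups overlapped and it was not called (log2 fold change -0.36 ± 0.29, adjusted p = 0.31). With Psma8 included, the median log2 fold change of the 8 alpha genes was 0.26.

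Levels of the alpha subunits were unequal, although the assembled core takes them in equal numbers. Per length, in TMM-scaled FPKM averaged over the 6 libraries, Psma6 stood first at 108, followed by Psma1 (78.95) and Psma2 (78.1). With both groups pooled the 3 ranges overlapped, but pooled ranges include the difference between groups. Within each group Psma6 lay above both, in control libraries at 93.4 ± 5.78, against 71.6 ± 2.32 for Psma1 and 65.0 ± 6.01 for Psma2. Ranks per length depend on the length used, which for Psma2 was 0.944 kb, against 2911 bases in its longest coding transcript. Psma4 (50.05), Psma5 (49.7) and Psma7 (49.1) could not be ordered beyond their spread, and Psma3 came lowest of the 7 at 29.9, 3.63 times below Psma6. Summed over the class, the level was 486.5, 514 and 487 TMM-scaled FPKM in co-cultured libraries, against 374, 389 and 421 in control libraries, 1.256-fold higher with no overlap.

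**Figure D2:**
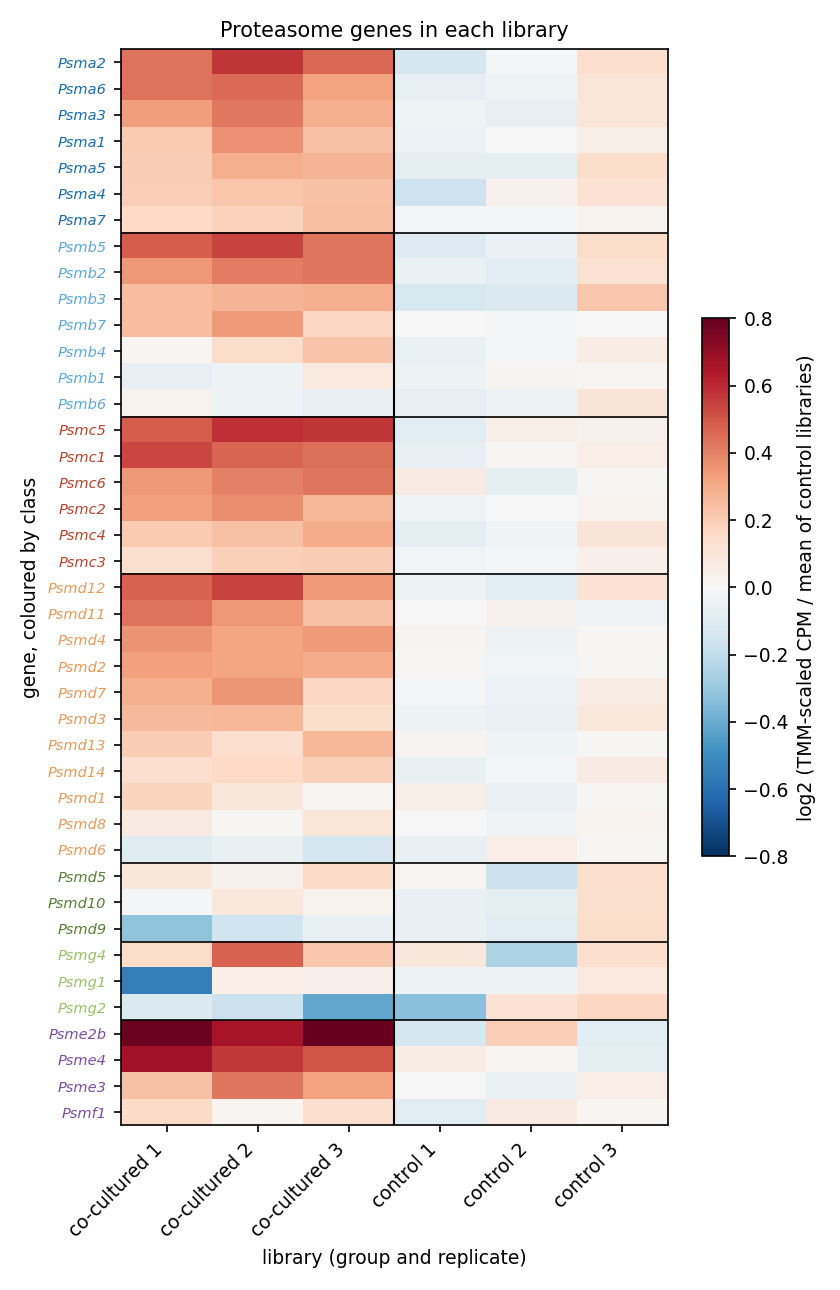
Log2 ratio of each gene's TMM-scaled CPM to its mean over the control libraries (colour), with the 3 co-cultured libraries left of the 3 controls and 41 genes down the page in their classes; Psma8 and Psmg3, both under 5 CPM, are not drawn. Red runs through the co-cultured libraries at the 25 core and 19S genes that rose, faint at those with small rises such as Psmd14. Pale rows include Psmb1, Psmb6, Psmd8 and the base chaperones Psmd5 and Psmd10, and the base chaperone Psmd9 is tinted blue in co-cultured libraries.

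Among beta subunits the response was split. Of the 8 genes 7 were tested, and Psmb2, Psmb3, Psmb5 and Psmb7 (4 of 7) rose; the class median was 0.25 on the log2 scale. Psmb5 (chromosome 14, 54614119 to 54618022, minus strand), which carries the chymotrypsin-like site and is the main target of clinical proteasome inhibitors, rose most. It had 116, 121 and 112 CPM in co-cultured libraries, against 77.4, 80.2 and 92.1 CPM in control libraries. Every co-cultured library was above every control (log2 fold change 0.48 ± 0.06, adjusted p = 4.5e-08). Psmb7, with the trypsin-like site, had 96.4, 103 and 91.3 CPM in co-cultured libraries, against 81.4, 80.96 and 81.6 CPM in control libraries (log2 fold change 0.25 ± 0.06, adjusted p = 2.69e-04).

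Psmb6 (chromosome 11, 70525367 to 70527858, plus strand), which carries the caspase-like site, did not share this pattern. It had 225, 214 and 210 CPM in co-cultured libraries, against 210, 214 and 237 CPM in control libraries. The groups overlapped, and the log2 fold change was -0.03 ± 0.05 (adjusted p = 0.71); without control replicate 3 it was 0.03. Per length it was the most abundant of all 44 genes, at 226 TMM-scaled FPKM, and its 6 libraries lay above those of Psmb5, the next in the class at 115. Psmb4 (87.2), Psmb1 (80.04) and Psmb7 (76.9) followed, each overlapping its neighbour with both groups pooled, as Psmb5 and Psmb4 did. Within each group Psmb5 lay above Psmb4, in control libraries at 95.5 ± 9.0, against 83.2 ± 3.31 TMM-scaled FPKM. Psmb2 (52.5) and Psmb3 (33.2) came last, Psmb3 6.81 times below Psmb6. The rank of Psmb3 depends on the length used, 1.509 kb, against 766 bases in its longest coding transcript. Psmb1, a non-catalytic beta subunit, averaged 82.7 ± 4.37 CPM in co-cultured libraries and 83.2 ± 1.88 CPM in control libraries (adjusted p = 0.921), and the sign of its small log2 fold change (-0.01) was positive without co-cultured replicate 1 (0.02) or replicate 2 (0.00385). Psmb4 averaged 108 ± 7.92 CPM in co-cultured libraries and 98.4 ± 3.92 CPM in control libraries (adjusted p = 0.0524), and was called higher when control replicate 3 (0.0277) or co-cultured replicate 1 (0.0115) was left out, and with DESeq2 size factors (0.0462). Psmb2 averaged 51.2 ± 1.49 CPM in co-cultured libraries and 38.98 ± 3.06 CPM in control libraries, and Psmb3 54.8 ± 0.868 CPM and 45.5 ± 6.33 CPM, in the same order. Psmb11, the catalytic subunit of the thymus proteasome, had 0 counts in all 6 libraries and was not tested.

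The interferon-induced subunits rose by larger folds than the constitutive ones they replace. Psmb8 had 181, 159 and 163 CPM in co-cultured libraries, against 58.5, 62.8 and 71.8 CPM in control libraries (2.602-fold), and Psmb9 rose 2.339-fold (adjusted p = 1.02e-14 and 5.87e-17). Per length, Psmb8 stood at 0.657 of Psmb5 in co-cultured libraries and 0.353 in control libraries, Psmb9 at 0.116 and 0.0485 of Psmb6, and Psmb10 at 0.985 and 0.674 of Psmb7. The log2 ratios differed by 0.89, 1.254 and 0.55 without overlap between groups, each with an exact two-sided permutation p of 0.1, the smallest that 3 against 3 libraries allow, and library scaling cancels in them. Gene length cancels in these differences between groups, but the ratios themselves depend on the length used for each gene. All 5 genes that the rule set aside rose (median 0.81 on the log2 scale, against 0.25 for the 43 genes above).

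**Figure D3:**
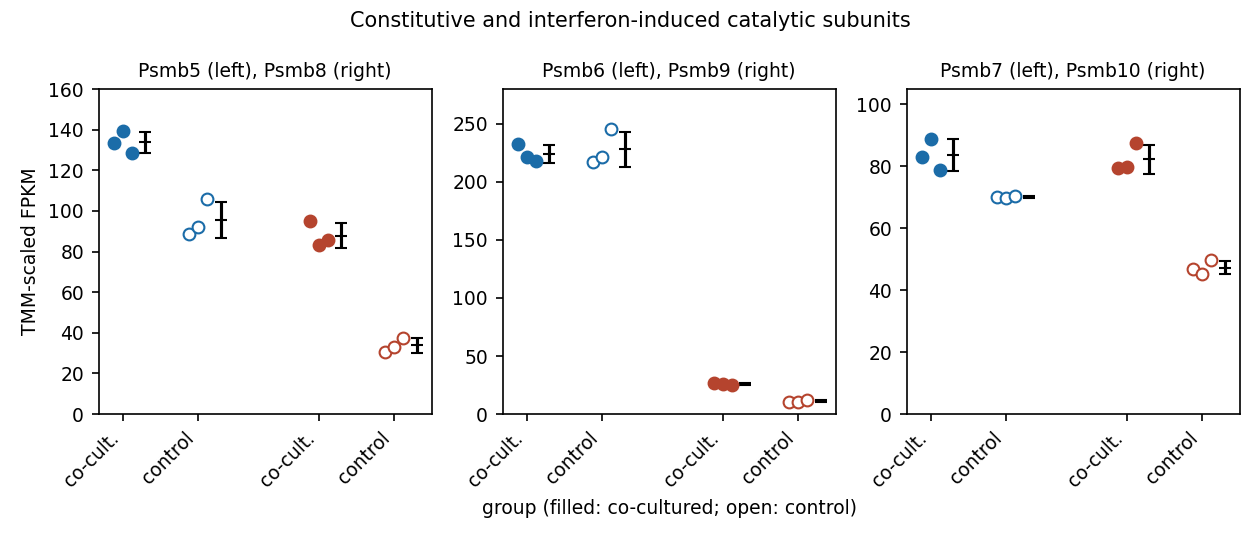
Level per length (y axis, TMM-scaled FPKM) of each constitutive catalytic subunit (blue) and of the interferon-induced subunit that replaces it (red) in co-cultured (filled) and control (open) libraries; points are libraries and bars the mean ± SD, n = 3. Psmb5 and Psmb7 are higher without overlap, Psmb6 overlaps between groups, and the 3 red subunits are higher without overlap.

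Promoter windows are shown for 4 genes because they share a letter pattern and differ in response: Psmb5 and Psme4 rose, Psmb6 and Psmd9 were not called. The pattern is TGACNNNGC, the core of the antioxidant response element bound by Nfe2l1 and Nfe2l2 with small Maf proteins, searched on both strands and printed in capitals. The windows run from 250 bases before to 50 after the RefSeq start (GRCm38.p6) and are written in the direction of the gene: chr14:54617946-54618245 on the minus strand for Psmb5, and chr11:30771525-30771824, chr11:70525107-70525406 and chr5:123227940-123228239 on the plus strand for Psme4, Psmb6 and Psmd9.
Psmb5: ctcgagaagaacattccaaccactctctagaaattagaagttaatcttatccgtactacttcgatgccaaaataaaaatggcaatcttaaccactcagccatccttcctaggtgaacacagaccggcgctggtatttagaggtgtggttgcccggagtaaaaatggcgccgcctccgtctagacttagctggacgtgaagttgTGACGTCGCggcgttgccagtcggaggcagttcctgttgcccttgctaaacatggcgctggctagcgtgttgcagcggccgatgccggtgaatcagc
Psme4: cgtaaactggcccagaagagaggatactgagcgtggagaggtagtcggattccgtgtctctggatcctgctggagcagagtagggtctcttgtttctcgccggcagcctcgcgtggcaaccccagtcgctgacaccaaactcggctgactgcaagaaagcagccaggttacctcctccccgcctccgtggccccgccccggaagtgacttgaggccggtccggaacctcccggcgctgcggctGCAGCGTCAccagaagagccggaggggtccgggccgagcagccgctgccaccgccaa
Psmb6: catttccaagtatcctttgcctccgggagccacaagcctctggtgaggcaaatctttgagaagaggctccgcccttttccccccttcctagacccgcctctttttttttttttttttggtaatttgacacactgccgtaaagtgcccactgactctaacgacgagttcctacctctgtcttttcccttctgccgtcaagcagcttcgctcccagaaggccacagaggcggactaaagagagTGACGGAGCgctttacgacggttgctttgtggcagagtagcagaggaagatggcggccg
Psmd9: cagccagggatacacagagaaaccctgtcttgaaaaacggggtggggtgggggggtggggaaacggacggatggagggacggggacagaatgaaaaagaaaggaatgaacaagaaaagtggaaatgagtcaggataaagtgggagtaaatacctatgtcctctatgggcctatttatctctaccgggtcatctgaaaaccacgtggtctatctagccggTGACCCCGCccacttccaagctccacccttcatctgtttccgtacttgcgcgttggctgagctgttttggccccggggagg
The match began 47, 7, 9 and 31 bases before the start, and in Psme4 it read on the opposite strand. Of the 44 genes 36 had windows in the table, 38 windows in all. The pattern was in 6 of these windows (15.8%), those of Psmb5, Psmb6, Psmc6, Psmd9, Psmd12 and Psme4, and in 12.4% of all 32851 windows; 4 of the 6 genes rose. In all, 11 patterns were searched in the same way. CCGGAAGT, an ETS factor pattern, was in 10 of 38 windows (26.3%, against 3.89% of all windows), at 9 genes of which 7 rose. Of all tested members 65.1% rose, and of all genes tested 25.9%. No link between a pattern and the response is read from the 7 of 9 or the 4 of 6. GGGCGG was in 52.6% (35.7% of all windows), CCAAT in 34.2% (37.4%) and the core of the interferon-stimulated response element in 10.5% (3.44%). CACGTG and GCATGCG were each in 7.89% (7.15% and 3.58% of all windows), TGANTCA in 5.26% (7.81%), the NRF1 palindrome, which contains GCATGCG, in 5.26% (0.971%), the TCTCGCG palindrome in 2.63% (0.466%) and a version of the last with 1 more letter in 0 of 38 (0.234%). A match says only that the letters are there.

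All 6 ATPases of the 19S base rose, and in none of the other 3 structural classes was every gene called. In the 20S alpha class, however, the only gene without a call was Psma8, which was near the floor. The ATPases had the highest class median of the 4, at 0.36 (20S alpha 0.26, 20S beta 0.25, 19S non-ATPase 0.22). Differences between class medians were not tested. Psmc5 (chromosome 11, 106256154 to 106263120, plus strand), known as Rpt6, had 96.8, 103 and 102.5 CPM in co-cultured libraries, against 65.2, 71.4 and 70.7 CPM in control libraries. The groups were far apart relative to their spread, with a log2 fold change of 0.55 ± 0.06 (adjusted p = 6.03e-10). Psmc1 (Rpt2), whose tail opens the alpha gate, had 199.9, 191 and 188 CPM in co-cultured libraries, against 132, 139 and 143.5 CPM in control libraries (log2 fold change 0.48 ± 0.05, adjusted p = 1.13e-09). Psmc6, Psmc2 and Psmc4 rose by 0.39, 0.32 and 0.25 on the log2 scale. Psmc3 changed least, with 142, 148.5 and 149.9 CPM in co-cultured libraries, against 128, 129 and 134 CPM in control libraries (log2 fold change 0.17 ± 0.05, adjusted p = 0.00451), and its call was lost with upper-quartile scaling (0.0904) and with library totals alone (0.0712). Per length Psmc1 was the most abundant at 109 TMM-scaled FPKM, above Psmc3 at 76.1 without overlap. Psmc5 (60.98), Psmc4 (42.5), Psmc6 (36.2) and Psmc2 (27.4) followed, each overlapping its neighbour only with both groups pooled. In control libraries they averaged 49.6 ± 2.46, 38.8 ± 2.54, 31.3 ± 1.6 and 24.4 ± 0.473, in that order. The rank of Psmc2 depends on the length used, 3.466 kb, against 1785 bases in its longest coding transcript. The summed level was 394, 400.4 and 399 TMM-scaled FPKM in co-cultured libraries, against 298, 305.5 and 317 in control libraries (1.297-fold).

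Of the 11 non-ATPase subunits, 8 rose and 3 were not called. Psmd12 (chromosome 11, 107479484 to 107504362, plus strand), a lid subunit, rose most. It had 81.6, 85.3 and 74.3 CPM in co-cultured libraries, against 57.2, 55.3 and 63.7 CPM in control libraries (log2 fold change 0.45 ± 0.06, adjusted p = 3.31e-07). The lid subunit Psmd11, whose overexpression raises proteasome activity in worms and human stem cells, averaged 82.5 ± 5.58 CPM in co-cultured libraries and 65.1 ± 1.52 CPM in control libraries (1.268-fold). Among the ubiquitin receptors, Psmd4 averaged 102 ± 1.43 CPM in co-cultured libraries and 80.6 ± 1.84 CPM in control libraries (1.263-fold). Psmd2 (chromosome 16, 20651652 to 20663414, plus strand), a scaffold and ubiquitin receptor of the base, had 441, 438 and 431 CPM in co-cultured libraries, against 354, 345 and 354 CPM in control libraries. Its libraries varied little within each group (log2 fold change 0.31 ± 0.05, adjusted p = 1.1e-06). Per length, Psmd2 and Psmd8 were the most abundant non-ATPase genes, with overlapping ranges over the 6 libraries. Psmd2 averaged 145 ± 1.71 TMM-scaled FPKM in co-cultured libraries and 117 ± 1.7 in control libraries. Psmd8 averaged 127 ± 3.92 in co-cultured libraries and 122 ± 2.5 in control libraries. With these lengths Psmd2 was the higher of the pair in co-cultured libraries and Psmd8 in control libraries. That order depends on the length used for Psmd8, 1.54 kb, against 1983 bases in its longest coding transcript.

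Psmd14, the deubiquitinase that removes ubiquitin chains, had the weakest call of the 28. It averaged 53.9 ± 1.04 CPM in co-cultured libraries and 48.2 ± 2.08 CPM in control libraries (log2 fold change 0.16 ± 0.06, adjusted p = 0.0269). The call was lost in 9 of 17 alternatives, among them those without control replicate 1 (adjusted p = 0.128), without control replicate 2 (0.0885), without co-cultured replicate 2 (0.0577) and without co-cultured replicate 3 (0.083). Its partner Psmd7 rose 1.206-fold, and Psmd3 and Psmd13, both of the lid, 1.166-fold and 1.149-fold.

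The 3 non-ATPase genes without a call were Psmd1, Psmd6 and Psmd8. Psmd6 (chromosome 14, 14112174 to 14120984, minus strand), a lid subunit, was lower in all 3 co-cultured libraries, at 57.5, 58.8 and 55.99 CPM, against 58.9, 63.6 and 61.7 CPM in control libraries. The gap between the groups was narrow (log2 fold change -0.09 ± 0.06, adjusted p = 0.183); it was called lower with upper-quartile scaling (-0.17, adjusted p = 0.0172) and library totals alone (-0.16, 0.0223). Psmd8, a lid subunit, averaged 195 ± 6.03 CPM in co-cultured libraries and 187 ± 3.84 CPM in control libraries (adjusted p = 0.315), and its log2 fold change of 0.06 turned to -0.01 with upper-quartile scaling. Psmd1, a scaffold of the base, averaged 174 ± 9.59 CPM in co-cultured libraries and 163 ± 5.71 CPM in control libraries (adjusted p = 0.123), and was called higher without co-cultured replicate 3 (0.0491). Over the class, levels per length spanned 5.29-fold, down to Psmd11 at 24.8 TMM-scaled FPKM; the sum was 675.5, 667 and 654.5 TMM-scaled FPKM in co-cultured libraries, against 577.5, 568 and 591 in control libraries (1.15-fold).

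**Figure D4:**
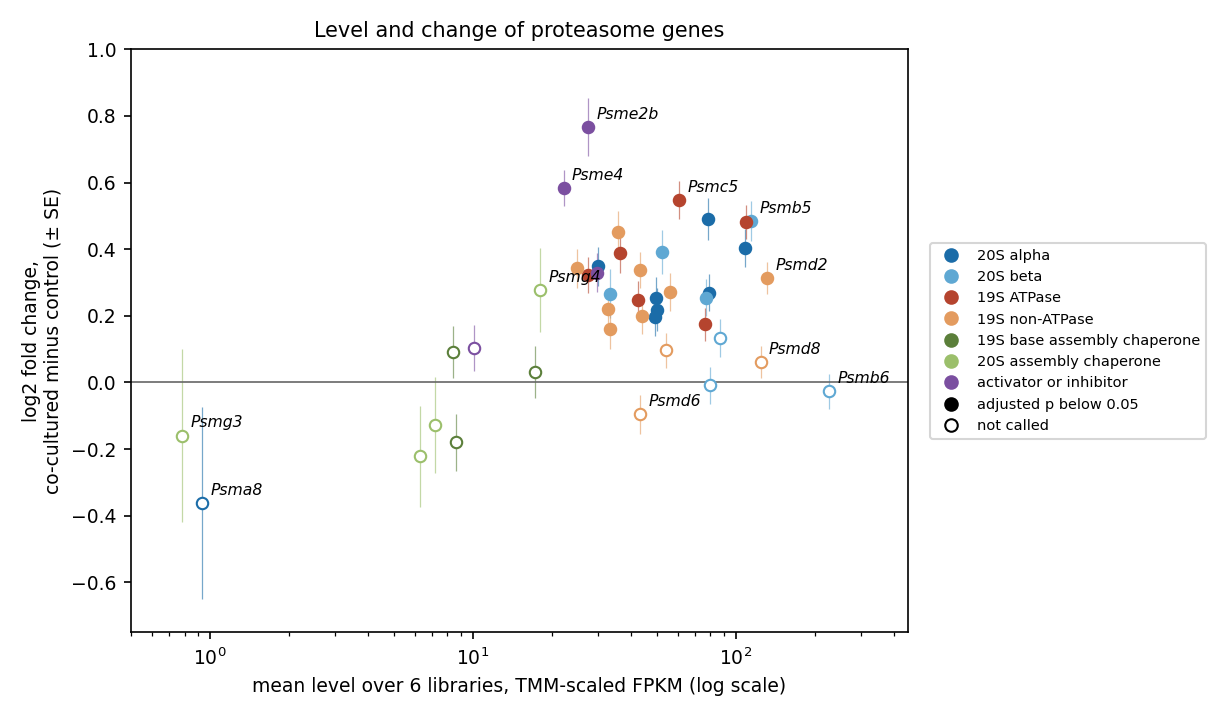
Log2 fold change with its standard error (y axis, co-cultured minus control) against the mean level per length over 6 libraries (x axis, TMM-scaled FPKM, log scale) for the 43 tested genes, coloured by class and filled where called. Psmb6 and Psmd8 sit at high levels near 0, next to Psmb5 and Psmd2, which rose, and the assembly chaperones lie at 18.0 TMM-scaled FPKM or lower.

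Across the 31 core and 19S genes other than Psma8, Spearman's rho between log2 fold change and TMM-scaled FPKM was -0.069, and between log2 fold change and gene length -0.0331. These are descriptions across genes that share the same 6 libraries, and genes are not independent replicates.

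None of the 7 assembly chaperones passed the edgeR test, and DESeq2 and limma-voom also called 0. At an unadjusted p below 0.05, Psmg4 was higher and Psmd9 lower with edgeR. Their median log2 fold change was -0.13, against 0.26 for the 32 tested subunits of the 4 structural classes. Of the 3 chaperones that bind ATPases of the 19S base, Psmd10, also known as the oncoprotein gankyrin, had 24.2, 25.9 and 24.9 CPM in co-cultured libraries, against 23.4, 23.1 and 26.7 CPM in control libraries (log2 fold change 0.03 ± 0.08, adjusted p = 0.77). Psmd5 had 29.5, 28.3 and 30.8 CPM in co-cultured libraries, against 28.0, 24.5 and 30.3 CPM in control libraries (0.09 ± 0.08, adjusted p = 0.35). Both pairs of groups overlapped. Psmd9 had 19.2, 21.5 and 23.0 CPM in co-cultured libraries, against 23.1, 22.5 and 26.4 CPM in control libraries (-0.18 ± 0.09, adjusted p = 0.0813). It was called lower under upper-quartile scaling (0.0156) or plain library totals (0.0202), and once co-cultured replicate 3 was left out (0.0344), and the non-coding gene Gm26745 on the opposite strand shares 25.5% of its exon bases.

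The Psmg genes encode chaperones that build the alpha ring. Psmg4 had 9.96, 12.5 and 10.4 CPM in co-cultured libraries, against 9.57, 7.56 and 9.85 CPM in control libraries (0.28 ± 0.13, adjusted p = 0.0652). The groups just failed to overlap, and it was called higher when control replicate 3 (0.0444) or co-cultured replicate 1 (0.0456) was left out. Psmg2 had 6.64, 6.39 and 5.39 CPM in co-cultured libraries, against 5.71, 7.79 and 8.07 CPM in control libraries (-0.22 ± 0.15, adjusted p = 0.226). Psmg1 averaged 7.2 ± 1.57 CPM in co-cultured libraries and 7.84 ± 0.392 CPM in control libraries, and its change on the log2 scale, -0.13, was 0.05 once co-cultured replicate 1, its lowest library, was left out. Psmg3 averaged 1.78 ± 0.321 CPM and 1.98 ± 0.355 CPM, in the same order. Standard errors of the 4 Psmg genes ran from 0.13 to 0.26, above the 0.05 to 0.09 of the 28 genes that rose. Those of Psmd5, Psmd9 and Psmd10 (0.08 to 0.09) were below only that of Psme2b (0.087) among the 28. The next highest of the 28 was 0.074, at Psmb3.

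Of the activators, Psme4 and Psme3 rose and the inhibitor was not called. Psme4 (chromosome 11, 30771726 to 30880361, plus strand), which encodes the single-chain cap of the core linked to histone breakdown, was chosen for naming after its values were seen. It had 183, 170.4 and 163 CPM in co-cultured libraries, against 119.7, 116 and 109 CPM in control libraries. Its log2 fold change of 0.58 ± 0.05 (adjusted p = 7.08e-11) was the highest among the 44 genes apart from Psme2b, and it kept its call in all 17 alternatives. Psme3, the nuclear activator that acts without ubiquitin, had 82.3, 94.0 and 87.5 CPM in co-cultured libraries, against 69.97, 67.3 and 72.6 CPM in control libraries (0.33 ± 0.06, adjusted p = 1.62e-05). Psmf1, first described as an inhibitor of the core, had 41.2, 37.5 and 40.6 CPM in co-cultured libraries, against 34.96, 38.7 and 37.5 CPM in control libraries, and the groups overlapped (0.10 ± 0.07, adjusted p = 0.217). Psme2b, a copy of the interferon-induced Psme2, met the name rule and had 29.3, 26.9 and 30.3 CPM in co-cultured libraries, against 15.5, 19.6 and 16.0 CPM in control libraries (0.77 ± 0.09, adjusted p = 6.19e-09). Of its transcript's 75-base windows 60.2% also occur in Psme2, which rose 1.685-fold, so its reads are uncertain.

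Reads of some subunits are also uncertain. For 16 of the 44 genes some 75-base window of the longest transcript occurs in a transcript of another gene in GENCODE M21, and for 7 more than 20% do: Psme2b, Psmb5 (40.0%), Psma5 (39.8%), Psmb3 (33.1%), Psmb7 (24.1%, shared with the overlapping gene Nek6), Psma3 (21.3%) and Psmg3 (20.3%). At 8 genes exon bases overlap a gene on the opposite strand, and no source used here says whether the counting was stranded.

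Outside the subunits, some genes of each pathway list rose and others fell, as did 25.9% and 25% of all genes tested; of the tested genes of each list, 31.2% of the associated factors, 50% of the regulators, 50% of the ubiquitin and E1 genes, 37.5% of the p97 genes and 30% of the COP9 genes rose, and nothing particular to these lists is read from such shares. Of 17 other proteasome subunits and associated factors 16 were tested, 5 rose and 2 fell (median log2 fold change 0.05). The 19S subunit genes Adrm1 and Sem1 and the core maturation factor Pomp, named here after their values were seen, were not called (adjusted p = 0.421, 0.356 and 0.331). The ubiquitin shuttle gene Rad23b averaged 158 ± 8.59 CPM in co-cultured libraries and 126 ± 3.21 CPM in control libraries (1.252-fold, adjusted p = 3.67e-06). Of 12 genes listed as regulators of proteasome genes and their partners, with the substrate carrier Midn counted among them, 6 rose and 2 fell (median 0.13). Midn, midnolin, which carries nuclear proteins to the proteasome without ubiquitin, averaged 189 ± 10.6 CPM in co-cultured libraries and 87.2 ± 4.04 CPM in control libraries (2.168-fold, adjusted p = 5.62e-18), and the small Maf gene Mafk rose 1.478-fold (adjusted p = 1.79e-08). Of the other small Maf genes Mafg rose 1.106-fold, and Maff fell to 3.80 ± 0.49 CPM, against 7.12 ± 1.44 CPM (edgeR adjusted p = 0.0158 and 3.64e-05). Nfe2l1, which drives subunit genes when the proteasome is inhibited and is named here after its values were seen, had 380, 383 and 352 CPM in co-cultured libraries, against 286, 284 and 290 CPM in control libraries (1.297-fold, adjusted p = 8.14e-08). Its relative Nfe2l2 fell to 142 ± 5.69 CPM in co-cultured libraries, against 183 ± 12.4 CPM in control libraries (adjusted p = 8.1e-07).

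Of 6 ubiquitin and E1 genes 3 rose and 2 fell (median 0.24). Rps27a, which encodes ubiquitin fused to a ribosomal protein, fell to 139 ± 12.4 CPM in co-cultured libraries, against 225 ± 11.0 CPM in control libraries (adjusted p = 2.05e-11). Of 8 genes of the p97 unfoldase, which hands substrates to the proteasome, and its cofactors, 3 rose and 3 fell (median -0.03), with Nploc4 and Faf1 1.189-fold and 1.193-fold higher. The 3 that fell were the unfoldase gene Vcp (0.9051-fold), Ufd1 (0.8464-fold) and Ubxn4 (0.9138-fold), with edgeR adjusted p = 0.0159, 0.0072 and 0.0391. The COP9 signalosome is built like the 19S lid: 3 of its 10 genes rose and 2 fell (median 0.03), with Cops5 at 59.6 ± 3.18 CPM in co-cultured libraries and 47.4 ± 2.05 CPM in control libraries, and Cops9 at 24.7 ± 4.8 CPM and 32.4 ± 1.06 CPM, in the same order. Against the 25.9% of all genes that rose, 78.1% of the 32 tested core and 19S subunits that met the name rule rose. That share leaves out the 19S subunit genes Adrm1 and Sem1, which were not called.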

How the data were processed

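The members and the gene lists were chosen with earlier results of these data known. Build GRCm38, STAR without a version and HTSeq 0.11.2 are listed in the submitters' processing notes; annotation release, counting options and strand are unknown here. Per the labels' protocols, SMART-Seq HT made the cDNA and Nextera XT the libraries. There were no molecular identifiers, so the counts are of reads, not of molecules. The standard errors and p-values of the fit include the spread between libraries of a group. The authors deposited read counts per gene, not normalized, in a sheet with identifiers and names (used here) and in a sheet keyed by name only (an alternative, tried after the data were seen, because the planned table choice had the sheets' keys the wrong way round). The authors also deposited FPKM values. These and the counts imply a gene length, which was the same in every library (relative tolerance 1e-06). This held for 12011 of 12011 genes with at least 10 counts in every library. TMM-scaled FPKM here is TMM-scaled CPM divided by that length. For some genes the implied length differs from that of the longest coding transcript in GENCODE M21. Comparisons of levels between genes therefore depend on the length used.

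Genes were kept by filterByExpr, scaled by TMM and tested in edgeR 4.0.16 (R 4.3.3) with a robust quasi-likelihood fit (legacy mode) on group alone, two-sided, with Benjamini-Hochberg adjustment over 13274 genes. The script was tested on simulated data. Alternatives used DESeq2 1.42.0, limma 3.58.1, other scalings and filters, FPKM with pseudocounts of 1 and 0.1, single libraries left out and a replicate block. Values in every library are given for the highest, lowest and most abundant member of each class, the catalytic subunits and untested members; of each pathway list the 2 genes with the smallest adjusted p are named, apart from some not reported here, and of each marker list the 2 most abundant. Other genes were named for their role or a call that depends on a setting, after their values were seen. No column of other samples was used. Older names in the table (Sem1, Ecpas, Ufd1, Cops9) were joined through synonyms or identifiers; Paaf1 was not analysed here. Coordinates, counted from 1, are from GENCODE M21 (GRCm38), which held 97.8% of the table's identifiers. Within groups, counts differed by more than sampling noise (chi-square per gene 3.12 to 9.5).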

Additional observations from a re-analysis of the deposited data

How the results depend on the processing

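Members called higher stayed within 1.5 times of 28 in every alternative but the test against a 1.2-fold change, which called 10; without single replicates the count was 26 to 30. Members called lower, 0 with TMM, were 2 under each of upper-quartile scaling, library totals, log2(FPKM + 1) and log2(FPKM + 0.1), and 1 under log2(FPKM + 1) without a filter; without single replicates it was 0 to 1, the 1 being Psmd9 without co-cultured replicate 3. Upper-quartile scaling and library totals moved the median of all genes to -0.0821 and -0.0757, against -0.00996 with TMM. The 19S ATPase median of 0.356 became 0.284 with upper-quartile scaling, 0.29 with library totals, 0.282 with log2(FPKM + 1) with or without filter and 0.29 with log2(FPKM + 0.1); the 19S non-ATPase median of 0.222 became 0.15, 0.156, 0.153 and 0.157 in the same order, and 0.192 to 0.267 without single replicates. 

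Of 28 called genes 20 kept their call in all 17 alternatives tested at the same threshold against no change. Uncalled genes that changed sign stayed uncalled. Psmd8 was at -0.011, -0.00464 and -0.00436 to -0.00439 and Psmd10 at -0.0407, -0.034 and -0.0279 to -0.0293 with upper-quartile scaling, library totals and the FPKM fits. Without single replicates Psmb1 ranged over -0.054 to 0.0217 (also 0.00385), Psmb6 over -0.0605 to 0.0285, Psmg1 over -0.229 to 0.047 and Psmg3 over -0.292 to 5.29e-05, and Psmd10 was at -0.00041 without control replicate 1 and -0.00851 without control replicate 2. The cause was not tested.

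Titles give both groups replicate numbers 1 to 3, but same-numbered libraries did not deviate together (correlations -0.0332, -0.0228 and -0.0266). Such correlations cannot show whether same-numbered libraries shared a preparation, and the labels do not say. With the replicate block 29 members were called higher and 0 lower; Psmb4 gained a call. With 3 libraries a group and 30 to 52 counts per library at Psmg3 or 23 to 36 at Psma8, small changes of the least abundant genes could not be detected at this depth.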
